A study of Homo sapiens with 6 samples.

Results

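Selenoprotein transcripts were followed in ARPE-19, a widely used human line that arose from retinal pigment epithelium, without and with exposure to an enzyme that generates hydrogen peroxide. The genes are SELENOP, SELENOF, SELENOH, SELENOK, SELENOM, SELENON, SELENOS, SELENOT, SELENOW and SEPHS2, and every probe set whose only gene symbol is one of these was taken. A probe set is the group of short array probes that reports 1 transcript region. That gave 10 genes of 18132 and 18 probe sets of the 49372 in the table, 1 for each of 4 genes and more than 1 for each of 6. The genes were chosen by name with values of this same comparison in view, including the lower SELENOP signal at 3 h. Their differences between 3 h and 0 h are therefore given as a description, without p-values. For these genes "called" only marks a pass of the threshold used for all probe sets, and supports nothing. The list holds only 10 of the human selenoprotein genes; the others are given further on.

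Per the labels' protocol, both groups received a GFP (green fluorescent protein) plasmid by transfection. After 48 h, 3 samples were given glucose oxidase at 10 mU/ml for 3 h, and 3 others (0 h) were not. Glucose oxidase consumes glucose and oxygen and releases hydrogen peroxide. The description field of each 3 h sample instead names a GFP construct carrying alpha satellite, the repeat found at centromeres. The groups may therefore also differ in what was transfected. The labels do not say that replicates came from separate cultures, and p-values may then measure only technical spread. They list no cells kept for 3 h without the enzyme.

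Selenoproteins contain selenocysteine, an amino acid with selenium in place of the sulfur of cysteine, inserted at a UGA codon that would otherwise end translation. Insertion needs a stem-loop in the messenger RNA called the SECIS element, a dedicated transfer RNA and a set of enzymes and binding proteins. Many selenoproteins are redox enzymes, and several others lie in the endoplasmic reticulum (ER), where they take part in protein folding, calcium handling and the removal of misfolded proteins. SELENOP is different from these: it is secreted, carries many selenocysteines and delivers selenium to other cells.

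The values are log2 signals, so a difference of 1 is a doubling. Of 29576 probe sets bright enough to be tested, 51.4% differed between the groups at an adjusted p under 0.05 (limma), 25.6% higher and 25.8% lower at 3 h, and these shares are the background for every count below. Spike-in controls and RNA measures differed too. All 24 probe sets of the poly-A spikes were lower on every 3 h array, with a median log2 change of -0.60. Of 18 probe sets of the hybridization spikes, 17 were lower on every 3 h array, with a median of -0.31. The 5′ minus 3′ signal of actin went from -2.06 ± 0.07 to -1.20 ± 0.06 (log2, SD, n = 3). Batch of preparation and treatment cannot be told apart. The identity of the line was only partly visible. RPE65, RLBP1 and TYRP1, markers of mature pigment epithelium, were under the floor set on signal (log2 4.64, the 40th percentile). OTX2, MITF and the keratins KRT8 and KRT18 were above it at their brightest probe sets. So were BEST1, TYR, PMEL, TTR and SERPINF1, at lower mean log2 levels of 4.72 to 5.92. Of 9 tested markers of this epithelium 4 were higher and 1 was lower at 3 h, and the mean log2 level of the 12 with a probe set was 6.51 to 6.53 on the 0 h arrays and 6.59 to 6.66 on the 3 h arrays. The part of these differences in the selenoprotein results was not tested.

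SELENOP was about halved and SELENON was higher at 3 h. SELENOK, SELENOT and SELENOW were 1.22-fold to 1.32-fold lower, while the other 5 genes were called at only 1 of their probe sets or at none. Of the 18 probe sets, all above the floor, 12 were called lower, 1 was called higher and 5 were not called, beside 51.4% called over all tested probe sets. All 3 h arrays lay below all 0 h arrays for 14 of them and above for 1, while the groups overlapped for 3. Over all tested probe sets 60.6% did not overlap, 30.5% with the 3 h arrays below and 30.1% above. The median log2 change was -0.32 over the 18 and 0.01 over all tested. These figures come from the comparison that led to the choice of genes, and probe sets of one gene are not independent. At the brightest probe set of each gene, 4 of the 10 genes were called lower and 1 higher, a share near the 49.7% called over all genes. By gene, every probe set of SELENOP, SELENOK, SELENOT and SELENOW was called lower, SELENOF, SELENOH and SELENOS were called lower at 1 probe set of 2, SELENON was called higher, and SELENOM and SEPHS2 were not called. Of the called differences 10 were smaller than 1.5-fold and only 1, at SELENOP, reached 2-fold.

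**Figure D1:**
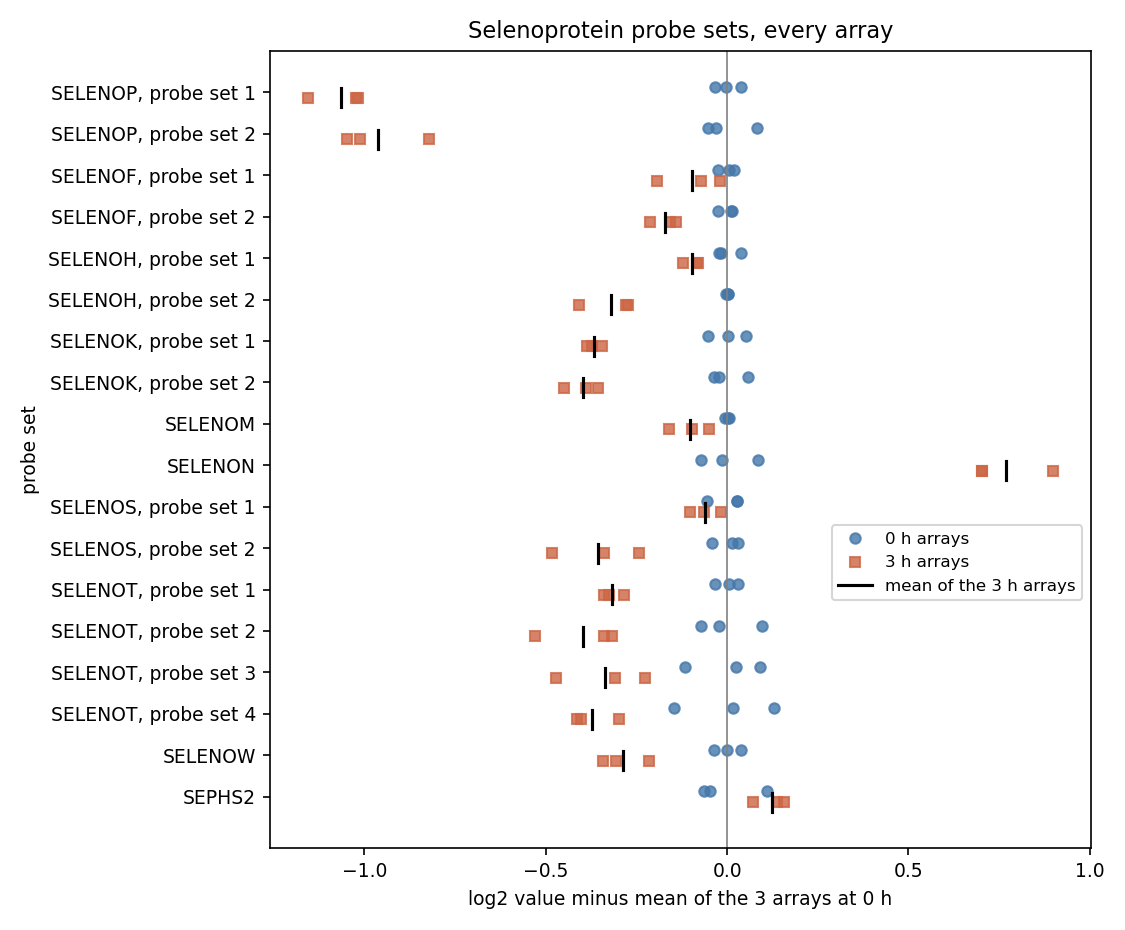
Log2 value of each array minus the mean of the 0 h arrays (horizontal axis) for the 18 probe sets, numbered within a gene from the brightest; circles are the 3 arrays at 0 h, squares the 3 at 3 h, and the black bar their 3 h mean. The SELENOP squares lie furthest left (means -1.07 and -0.96) and those of SELENON furthest right (0.77), while SELENOM, SEPHS2 and the first probe sets of SELENOF, SELENOH and SELENOS stay nearest the line (-0.10 to 0.12).

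SELENOP encodes selenoprotein P, the main selenium carrier of plasma, made chiefly by the liver. The gene lies on chromosome 5 at 42799880 to 42811892 on the minus strand (GRCh38.p14). Its brightest probe set read 6.45, 6.49 and 6.42 on the 0 h arrays and 5.30, 5.43 and 5.44 on the 3 h arrays (log2). The lowest 0 h array thus stood 0.98 above the highest 3 h array. The means were 6.46 ± 0.04 and 5.39 ± 0.08 (SD, n = 3), a log2 change of -1.07 (SE 0.06), or 2.09-fold lower. This probe set is of the kind the platform marks as able to cross-hybridize. The other, which carries no such mark, read 5.86, 5.75 and 5.73 at 0 h and 4.77, 4.96 and 4.73 at 3 h. It showed the same separation, with a gap of 0.77 between the groups, a log2 change of -0.96 (SE 0.08) and a 1.95-fold lower level. Of all tested probe sets 0.145% had a lower change than the first and 0.338% a lower change than the second. SELENOP was chosen with this difference in view, so these ranks are a description and support nothing. The 3 h means of 5.39 and 4.82 are not far above the floor of 4.64, so the size of the difference rests on fairly dim signal. In a whole culture, fewer cells with the transcript and less of it per cell cannot be told apart. Markers of hepatocytes, the main source of SELENOP in the body, were dim: ALB, SERPINA1 and APOB were under the floor, and of APOA1 and TF, the 2 tested, 0 were called in limma (1 had an unadjusted p under 0.05). The mean log2 level of the 5 hepatocyte markers was 4.08 to 4.16 at 0 h and 4.01 to 4.15 at 3 h. Of 3 tested blood markers and 2 tested endothelial markers 0 were called in limma, with 1 and 0 at an unadjusted p under 0.05.

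**Figure D2:**
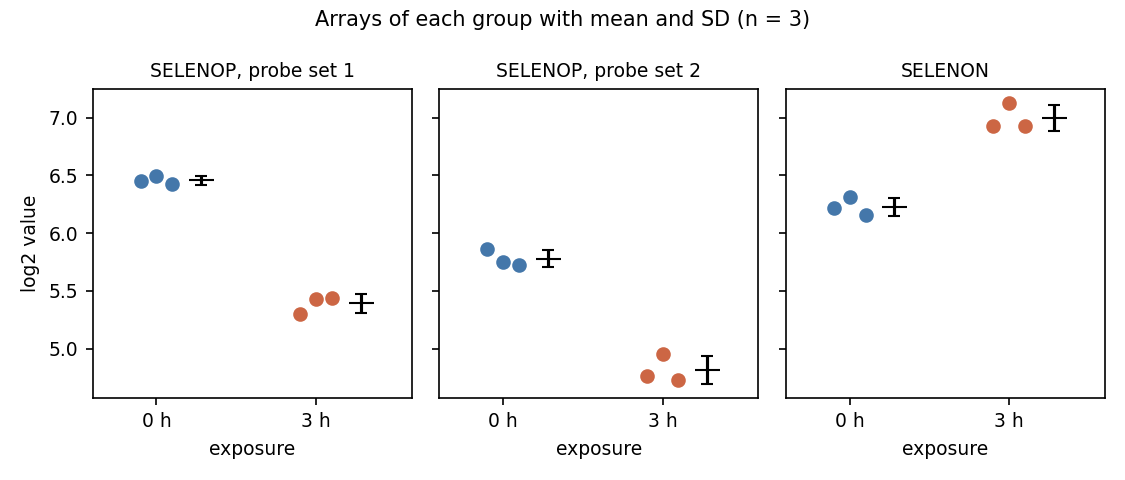
Log2 value (vertical axis) of each array at 0 h and 3 h for the SELENOP probe sets and the SELENON probe set, with the group mean and SD (n = 3) beside the points. In each panel the groups are apart, by 0.98 and 0.77 for SELENOP and by 0.62 in the opposite direction for SELENON; levels of different probe sets are not comparable.

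SELENON encodes an ER membrane selenoprotein that senses calcium and keeps the calcium pump SERCA active, and its loss causes a congenital muscle disease. It lies on chromosome 1 at 25800193 to 25818221 on the plus strand. Its probe set read 6.21, 6.31 and 6.16 at 0 h and 6.93, 7.13 and 6.93 at 3 h. Every 3 h array was above every 0 h array, with means of 6.23 ± 0.08 and 7.00 ± 0.11 (SD, n = 3) and a log2 change of 0.77 (SE 0.08), or 1.70-fold. Of all tested probe sets 96.7% had a lower change, a rank that is likewise only a description. It was the only one of the 18 called higher, and it is the single SELENON probe set used here.

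The sequences just before the start sites of SELENOP and SELENON are shown because these genes had the largest differences, in opposite directions. They are the 250 bases before the RefSeq start (GRCh38.p14), 5′ to 3′ on the gene's strand, chr5:42811893-42812142 on the minus strand for SELENOP and chr1:25799943-25800192 on the plus strand for SELENON. Capitals mark matches, on either strand, to 3 motifs. The first is GTAAACA, the site of forkhead factors such as FOXO. The second is TGACNNNGC, the core of the antioxidant response element bound by NRF2. The third is the TATA box, searched for as TATAAA.
SELENOP: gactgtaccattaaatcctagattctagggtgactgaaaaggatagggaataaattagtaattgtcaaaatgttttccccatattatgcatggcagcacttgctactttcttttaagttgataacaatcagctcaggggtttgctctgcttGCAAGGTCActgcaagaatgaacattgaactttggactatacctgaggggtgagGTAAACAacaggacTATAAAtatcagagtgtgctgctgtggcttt
SELENON: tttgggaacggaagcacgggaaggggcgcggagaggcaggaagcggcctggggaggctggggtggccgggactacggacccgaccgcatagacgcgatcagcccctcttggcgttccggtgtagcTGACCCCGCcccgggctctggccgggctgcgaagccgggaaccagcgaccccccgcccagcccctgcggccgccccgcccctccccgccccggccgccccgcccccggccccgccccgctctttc
The SELENOP window holds all 3 motifs, none overlapping another: the forkhead match 45 to 39 bases before the start, the TATA box at 31 to 26 and the antioxidant core, on the opposite strand, at 99 to 91. The SELENON window holds the antioxidant core alone, 125 to 117 bases before the start. Of 35116 RefSeq promoter windows of this length, 2.98% hold the forkhead letters, 10.9% the antioxidant core and 10.7% the TATA box, and 9 hold all 3. A window was given for 9 of the 10 genes, all but SELENOM. Among these, SELENOK also had an antioxidant core, at 117 to 109, SEPHS2 had a TATA box at 32 to 27, and the other 5 had none of the motifs. The SELENOP window was 39.6% G and C, below all others of the list (52.8% for SEPHS2 to 77.2% for SELENON), and 12.1% of all promoter windows were lower. These matches describe letters and do not show that a factor binds.

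Beside SELENON, the ER members were SELENOK, SELENOT, SELENOS, SELENOF and SELENOM. SELENOK, an ER membrane protein that works with the palmitoyl transferase ZDHHC6, read 10.93, 10.82 and 10.88 at 0 h and 10.53, 10.50 and 10.49 at 3 h. Its other probe set read 10.91, 10.81 and 10.83 against 10.40, 10.49 and 10.46. Both were called lower with no overlap, with log2 changes of -0.37 and -0.40 (SE 0.06 each). The gene is on chromosome 3 at 53884417 to 53891859, on the minus strand.

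SELENOT, an ER membrane oxidoreductase with a thioredoxin-like fold, was covered by 4 probe sets, all called lower and none overlapping. The brightest read 11.25, 11.29 and 11.31 at 0 h and 10.94, 11.00 and 10.96 at 3 h, a log2 change of -0.32 (SE 0.06). The other 3 had changes of -0.40, -0.34 and -0.37 (SE 0.08 each). SELENOT had the most probe sets of the list, and they gave similar differences, from 1.25-fold to 1.32-fold lower. Only the probe set at -0.40 carries no mark as shared or cross-hybridizing, and those at -0.40 and -0.34 target the same database sequence. It lies on chromosome 3 at 150603321 to 150630436, on the plus strand.

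SELENOS, which helps draw misfolded proteins from the ER to the ATPase VCP, differed between its probe sets. The brighter read 10.51, 10.59 and 10.59 at 0 h and 10.55, 10.46 and 10.50 at 3 h, overlapping and not called (log2 change -0.06, SE 0.06). The dimmer read 6.96, 6.89 and 6.94 against 6.69, 6.45 and 6.59 and was called lower (-0.36, SE 0.07). They target different database transcripts, and which one better represents the gene was not tested. SELENOS is on chromosome 15 at 101270809 to 101277485.

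SELENOF, an ER lumen protein bound to the glycoprotein folding sensors UGGT1 and UGGT2, differed little. Its brighter probe set read 11.96, 11.91 and 11.94 at 0 h and 11.92, 11.74 and 11.86 at 3 h (-0.10, SE 0.06, overlapping, not called), and the other 11.67, 11.63 and 11.67 against 11.50, 11.44 and 11.51 (-0.17, SE 0.06). The call of the latter ended without 0 h replicate 1, 2 or 3 (-0.16, -0.18 and -0.17), without 3 h replicate 2 (-0.15), with quantile normalization (-0.15), with no floor and with the replicate number as a block (-0.17 in both). SELENOM, an ER lumen thioredoxin-like protein, read 10.15, 10.14 and 10.15 at 0 h and 10.10, 10.05 and 9.99 at 3 h. These groups did not overlap, but the gap was 0.04 and the change of -0.10 (SE 0.06) was not called.

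Outside the ER, SELENOW, a small cytosolic thioredoxin-like protein, read 8.26, 8.33 and 8.29 at 0 h and 7.99, 8.08 and 7.95 at 3 h, with a log2 change of -0.29 (SE 0.06) and no overlap. SELENOH, a nucleolar redox protein, was called lower at 1 probe set (11.60, 11.60 and 11.60 at 0 h, then 11.33, 11.32 and 11.19 at 3 h, a change of -0.32, SE 0.06). At its brighter probe set it read 12.04, 11.98 and 11.98 against 11.92, 11.92 and 11.88, a change of -0.10 (SE 0.06) that was not called. Both are marked as shared or cross-hybridizing. SEPHS2 makes the selenium donor selenophosphate and is itself a selenoprotein. It read 8.62, 8.78 and 8.61 at 0 h and 8.74, 8.81 and 8.83 at 3 h, overlapping, with a change of 0.12 (SE 0.07) that was not called.

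The other human selenoprotein genes were split. Of 15 listed, 14 could be looked up and 10 were tested at their brightest probe set, while GPX2, DIO1, DIO3 and SELENOV were under the floor. Of the 10 tested, 3 were lower and 1 was higher at an adjusted p under 0.05 (limma), with a median log2 change of 0.05. Over the brightest probe sets of all 12221 tested genes 49.7% were called, 29.8% lower and 19.9% higher, with a median of -0.04. SELENOI, which makes phosphatidylethanolamine in the ER, fell by 0.40 (SE 0.07, adjusted p = 0.00144), and its other probe sets stood at -0.67 (called) and -0.10 (not called). DIO2, the deiodinase that activates thyroid hormone, fell by 0.28 (SE 0.09, adjusted p = 0.0243), but its other 4 probe sets ran from 0.03 to 0.35, the last called higher (adjusted p = 0.0429), and the mean over all 5 was 0.068. The methionine sulfoxide reductase gene MSRB1 fell by 0.18 (SE 0.06, adjusted p = 0.0244), and the secreted glutathione peroxidase gene GPX3 rose by 0.21 (SE 0.06, adjusted p = 0.0192) at its brightest probe set, marked as shared. The other GPX3 probe set, not so marked, rose by 0.69 (SE 0.07, adjusted p = 0.000212), or 1.61-fold. The calls of the small differences depended on single arrays: GPX3 at its brightest probe set was lost without 0 h replicate 1 (0.17), DIO2 without 0 h replicate 1, 2 or 3 (-0.28, -0.28 and -0.29), and MSRB1 without 0 h replicate 1 or 2 or 3 h replicate 3 (-0.17, -0.18 and -0.16). With the replicate number as a block, that GPX3 probe set (adjusted p = 0.0508) and MSRB1 (adjusted p = 0.0575) were not called, leaving 0 higher in limma, where 5 of the 10 had an unadjusted p under 0.05 without the block.

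Among the best known selenoenzymes, named after their values were seen, the cytosolic peroxidase gene GPX1 stood at 0.02 (SE 0.05, adjusted p = 0.792) and turned to -0.018 with median centring. GPX4, which protects membrane lipids, stood at -0.13 (SE 0.06, adjusted p = 0.0972) and was not called. It was called lower with median centring (-0.17), with trended moderation (-0.13) and averaged over its probe sets (-0.14). The thioredoxin reductase gene TXNRD1 stood at 0.08 at its brightest probe set, marked as shared (adjusted p = 0.237), while the 2 others rose by 0.50 and 0.57 (adjusted p = 0.00844 and 0.00224). TXNRD2 stood at 0.16 at its brightest probe set (adjusted p = 0.0576), which was called higher with quantile normalization and with trended moderation (0.16 in both). Other TXNRD2 probe sets rose by 0.25 and 0.28 (adjusted p = 0.00992 and 0.00910), while the last tested stood at 0.10 and was not called.

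Of 14 genes of selenocysteine synthesis and insertion, all tested, 4 were lower and 1 was higher at their brightest probe sets, and 9 did not pass. At these probe sets the share called lower was near the 29.8% over all genes, and the median log2 change was -0.11 beside -0.04. The count moved with the setting. It was 7 with trended moderation, beside 8163 of all 29576 probe sets, and 8 averaged over probe sets, beside 3197 of 10679 genes. SEPSECS, the last enzyme of selenocysteine synthesis on its transfer RNA, fell from 5.62 ± 0.15 to 4.85 ± 0.06 (log2, SD, n = 3), a change of -0.77 (SE 0.09, adjusted p = 0.000242), and its other probe sets fell by 1.00 and 0.41. PSTK, the kinase of the step before, fell by 0.60 (SE 0.07, adjusted p = 0.000327), and by 0.77 at its other tested probe set. TRIT1, which modifies transfer RNAs including that for selenocysteine, fell by 0.59 (SE 0.08, adjusted p = 0.000717), while of its other tested probe sets 1 fell by 0.96 (adjusted p = 7.72e-05) and 2 were not called (-0.20 and 0.01). SECISBP2L, a relative of the SECIS-binding protein, fell by 0.38 (SE 0.09, adjusted p = 0.00658), but its other tested probe set stood at -0.03 (adjusted p = 0.842), and a further one, under the floor, had all 3 h arrays above the 0 h arrays (0.30).

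On the other side EIF4A3, an RNA-binding protein that can occupy SECIS elements, rose by 0.26 (SE 0.07, adjusted p = 0.0157). SARS1, which loads serine on the transfer RNA at the first step, stood at -0.03 (adjusted p = 0.691), and SEPHS1, the relative of SEPHS2, stood at -0.16 (adjusted p = 0.0857). SECISBP2, the main SECIS-binding protein, gave no single answer: its 6 probe sets ran from -0.84 to 0.20, 2 of them called lower, and the brightest was not called (adjusted p = 0.153).

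**Figure D3:**
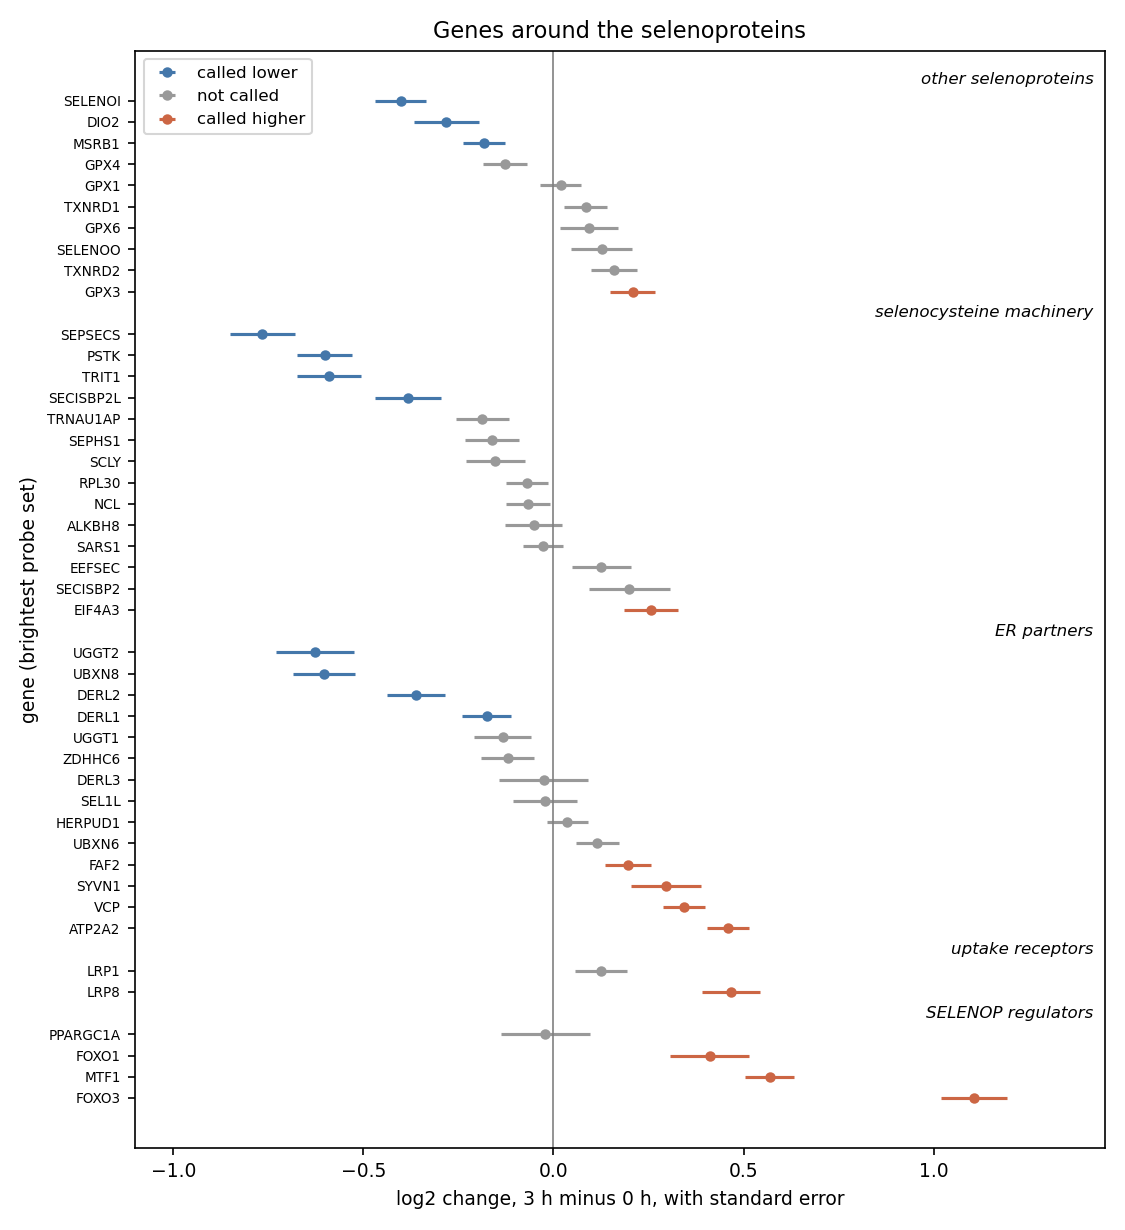
Log2 change, 3 h minus 0 h, with its standard error (horizontal axis) for the tested genes of 5 lists at their brightest probe sets; blue points were called lower, orange points higher and grey points not called (limma, adjusted p under 0.05). SEPSECS (-0.77) is lowest and FOXO3 (1.11) highest.

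ER proteins that work with SELENOS, SELENOK, SELENOF and SELENON went both ways. Of 14 tested, 4 were higher, 4 were lower and 6 did not pass, with a median log2 change of -0.02. Over all tested genes 19.9% were higher and 29.8% lower, with a median of -0.04. ATP2A2, which encodes the SERCA pump that SELENON acts on, rose from 10.29 ± 0.04 to 10.75 ± 0.02 (log2, SD, n = 3; change 0.46, SE 0.06, adjusted p = 0.000337), and 3 of its 4 other tested probe sets rose as well. VCP rose by 0.34 (SE 0.06, adjusted p = 0.00137), and by 0.20 to 0.56 at its other 3. The ubiquitin ligase gene SYVN1 and FAF2, a recruiter of VCP, rose by 0.30 and 0.20 (adjusted p = 0.0260 and 0.0248). The other SYVN1 probe set stood at 0.06 and was not called. FAF2 has 5 others, of which 3 rose by 0.93, 0.78 and 0.82 (adjusted p = 6.12e-05, 9.22e-05 and 9.64e-05) and 2 were not called (-0.06 and 0.04). UGGT2 and UBXN8, a VCP tether, fell by 0.63 and 0.60 (adjusted p = 0.00140 and 0.000555), and DERL2 and DERL1, channel proteins that bind SELENOS and SELENOK, fell by 0.36 and 0.18 (adjusted p = 0.00445 and 0.0475). The other 2 DERL1 probe sets stood at 0.08 and -0.08, neither called, and the mean over all 3 was -0.058 (adjusted p = 0.339). UGGT1 stood at -0.13 (adjusted p = 0.163). Its probe set marked as shared rose by 0.46 with no overlap (adjusted p = 0.0148), and the remaining UGGT1 probe set stood at -0.07 and was not called. Averaged over its probe sets UGGT1 turned to 0.086. ZDHHC6 stood at -0.12 (adjusted p = 0.183). Calls near the threshold at these brightest probe sets depended on single arrays: SYVN1 was lost without 0 h replicate 1 or 3 or 3 h replicate 2 (0.32, 0.25 and 0.21), FAF2 without any 0 h array (0.21, 0.20 and 0.18) or 3 h replicate 2 or 3 (0.18 in both), and DERL1 without any 0 h array (-0.15, -0.17 and -0.20) or 3 h replicate 1 or 3 (-0.14 and -0.18).

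LRP8, the receptor through which brain and testis take up SELENOP, rose from 7.08 ± 0.04 to 7.55 ± 0.13 (log2, SD, n = 3; change 0.47, SE 0.08, adjusted p = 0.00130), with 0.19 at its other probe set, which was not called. LRP1 stood at 0.12 (adjusted p = 0.163), but rose by 0.29 at its other tested probe set (adjusted p = 0.00371) with no overlap. LRP2, the kidney receptor, was under the floor. Of 5 genes listed as possible regulators of SELENOP transcription, HNF4A had no probe set with its symbol alone. Of the 4 tested, 3 were higher and 0 lower, beside 19.9% higher and 29.8% lower over all tested genes. FOXO3 rose from 7.65 ± 0.02 to 8.75 ± 0.17 (change 1.11, SE 0.09, adjusted p = 5.41e-05), and all 3 of its probe sets, each marked as cross-hybridizing, rose by 1.06 to 1.11. FOXO1 rose by 0.41 (SE 0.10, adjusted p = 0.0113), and by 0.82 at its other tested probe set. The metal-sensing factor gene MTF1 rose by 0.57 (SE 0.07, adjusted p = 0.000272), with 0.16 to 0.68 at its other 3 tested probe sets, the lowest of them not called. PPARGC1A, the FOXO1 coactivator gene, stood at -0.02 (adjusted p = 0.888). These are transcript levels and do not show the activity of the factors.

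The probe sets whose 6 arrays most resembled the brightest SELENOP probe set were found by the root mean square difference after each was centred on its own mean, over 27233 tested probe sets of other genes with 1 symbol. The 5 closest were those of C12orf76 (0.03), ID1 (0.04), GEMIN2 (0.05 and 0.06) and ST20 (0.06 on the log2 scale). Their log2 changes were -1.07 for C12orf76, -1.06 for ID1, -1.04 and -0.95 for GEMIN2 and -1.06 for ST20. The second SELENOP probe set was further away, at 0.10. With 6 arrays in 2 groups, likeness is mostly an equal difference between the groups.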

How the data were processed

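Biotin-labelled RNA of 6 samples, made with an Affymetrix 3′ IVT kit, was read on 1 array each, per the labels' protocols. The deposited values are log2 signals, a scale read from the values (array medians 5.30 to 5.34, range 1.54 to 14.3). MAS5 and RMA are named in the submitters' processing notes, without version or role, and nothing further is stated about the processing. The nearly equal distributions hide any change in total RNA. Gene names come from the platform annotation, where it gives 1 symbol (44988 of 49293 that are not controls; all 10 member gene identifiers matched the RefSeq table).

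The 79 control probe sets were left out, then probe sets with a mean under the 40th percentile (log2 4.64). The remaining 29576 were fitted with lmFit and eBayes (limma 3.58.1, R 4.3.3), 3 h minus 0 h, with Benjamini-Hochberg adjustment over all and a threshold of 0.05. "Called", "rose" and "fell" refer to this fit, and standard errors are its moderated ones. List genes are represented by their probe set with the highest mean. Members and lists were chosen with earlier results of these data known. Named from each list are the 4 genes with the smallest p and direct partners of members; others are marked as chosen after their values were seen, as are the genes EIF4A3, SARS1, SEPHS1, SYVN1 and FAF2. The 5 probe sets most like SELENOP were named by distance.

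The fit was tested on simulated data with known changes. It called 95 of 100 changes of log2 1, 61 of 100 of log2 0.5 and 7 of 29376 unchanged probe sets. Few probe sets were changed there, so the adjusted threshold was stricter than in the real fit. A small difference that was not called is not shown to be absent. The number of arrays limits the precision. Promoter sequences are from RefSeq (GRCh38.p14). Alternatives covered scaling, floor, probe set choice, moderation, array weights, the replicate block, thresholds and leaving out each array. Figures were drawn with matplotlib 3.10.9.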

Additional observations from a re-analysis of the deposited data

How the results depend on the processing

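The SELENOP change ran from -1.09 to -1.02 when 1 array was left out. SELENOP and SELENON were chosen with these arrays' values in view, so their direction and call under other settings support nothing. In the main fit 12 of the 18 probe sets were called lower. Without shared or cross-hybridizing ones 5 were, out of fewer than 18. Those left were both of SELENOS and 1 each of SELENOP, SELENOF, SELENOK, SELENOM, SELENON, SELENOT and SELENOW. At 1.5-fold or more 2 of the 18 were called lower. Of the 10 genes, 4 were called lower with 1 probe set per gene and 7 averaged over probe sets. Settings that choose or average probe sets hold fewer items. With 1 per gene, SELENOF, SELENOH and SELENOS were also represented by their brighter probe sets, which were not called. Leaving out 1 array gave 11 to 12. Over all tested, calls were 4927 higher and 4667 lower of 19341 without shared ones, and 2514 and 3759 of 12221 with 1 per gene. They were 2902 and 3197 of 10679 averaged over probe sets, and 1987 and 1334 of 29576 at 1.5-fold. Without 1 array they ranged from 6262 to 7208 higher and from 6019 to 7501 lower, of 29576 each time.

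Other selenoprotein genes called higher numbered 2 with quantile normalization, 3 with trended moderation, 3 without shared probe sets, 2 with 1 probe set per gene, 2 averaged, 0 at a threshold of 0.01, 0 at 1.5-fold and 0 to 2 without 1 array (0 without 0 h replicate 1, 2 without 3 h replicate 1). Those called lower numbered 1 at 0.01, 0 at 1.5-fold and 1 to 3 without 1 array (1 without 0 h replicate 1 or 2). Selenocysteine machinery genes called higher numbered 2 without shared probe sets, 0 at 0.01, 0 at 1.5-fold and 1 to 2 without 1 array (2 without 3 h replicate 2). Those called lower numbered 7 with trended moderation and 8 averaged. Over all tested, 8163 of 29576 probe sets were lower with trended moderation and 3197 of 10679 genes averaged. ER partners called higher numbered 2 at 0.01, 0 at 1.5-fold and 2 to 4 without 1 array (2 without 0 h replicate 1 or 3 or 3 h replicate 2), and those called lower 2 at 1.5-fold. The sign turned for DIO2 (0.068), UGGT1 (0.086) and SECISBP2 (-0.19, called) averaged over probe sets, for GPX1 with median centring (-0.018) and for PPARGC1A with array weights (0.032) or without 1 array (-0.11 to 0.094). The causes of these moves in the lists and single genes were not tested.

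Deviations of same-numbered arrays did not go together (correlations -0.01, -0.04 and -0.19 across probe sets), and no array correlated best with its own number. With the replicate number as a block 6892 probe sets were called higher and 6970 lower, 11 of the 18 selenoprotein probe sets were lower and 1 was higher, 0 other selenoprotein genes were higher, and SELENOP stood at -1.07. Of 50 named results 5 calls ended: those of the second SELENOF probe set, MSRB1, and GPX3, DERL1 and FAF2 at their brightest probe sets.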
